A study of Mus musculus with 2 samples.

Results

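The genes for 8 transcription factors of kidney stroma, Foxd1, Tbx18, Meis1, Meis2, Zeb2, Alx1, Ebf1 and Twist1, were examined for open chromatin in Wnt4-lineage cells with and without Brg1. ATAC-seq, in which a transposase cuts accessible DNA, had been run on tdTomato-positive cells sorted from mouse kidneys at E18.5, shortly before birth. A library came from kidneys of the genotype labelled Brg1cKO/cKO (cKO below), and the other library from kidneys labelled WT control (control below). Brg1, encoded by Smarca4, is an ATPase of the BAF chromatin remodelling complex. The labels name no Cre driver and no number of pooled embryos. The cell type field of the control reads only control, while its title names Wnt4-lineage cells. With 1 library per genotype there was no replicate spread, so no test between genotypes was made. Every interval below is an exact binomial 95% interval that covers counting error only.

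A peak was taken as belonging to a gene when its summit lay inside the gene, or within 100 kb of an end of the gene that was also the nearest end of any protein-coding gene. The rule uses position alone. This gave 106 of 61210 cKO peaks and 123 of 77529 control peaks. Of them, 65 cKO and 76 control peaks lay inside the gene. The flanking peaks nearest to the limit on the inner side were a cKO peak 97.7 kb from Foxd1 and a control peak 95.6 kb from Ebf1, both without a counterpart. On the outer side, peaks of both libraries lay 101 kb from Meis1 and overlapped each other.

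Renal stroma is the connective tissue between the tubules, and most of it descends from progenitors that express the forkhead gene Foxd1, whereas nephrons descend from Six2-expressing cap mesenchyme. Wnt4 is switched on when cap mesenchyme turns into epithelium, and it is also expressed in parts of the stroma. Meis1 and Meis2 encode homeodomain proteins of the TALE class, Tbx18 a T-box factor of the mesenchyme around the ureter, and Twist1 a basic helix-loop-helix factor of mesenchyme. Zeb2 encodes a zinc-finger repressor of epithelial genes, Ebf1 a helix-loop-helix factor best known from B cells, and Alx1 a paired-type homeodomain factor of facial mesenchyme.

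Most of the open chromatin at these genes was called in both libraries. In the cKO list 99 of 106 peaks overlapped a control peak (93.4%, 86.9 to 97.3%), and in the control list 103 of 123 peaks overlapped a cKO peak (83.7%, 76.0 to 89.8%). Peaks without a counterpart thus numbered 7 in cKO and 20 in control, against 5.92% of all cKO peaks and 25.9% of all control peaks that had none. Among all peaks of the lists 94.1% of cKO and 74.1% of control peaks were found in the other library. The share of control peaks found was therefore 9.59 points above that of the whole list. That order depended on which peaks were counted. With both lists cut to their more significant 50%, so that a counterpart had to be in that part too, 93.3% of cKO and 68.3% of control peaks of the 8 genes were found, against 95.2% and 75.4% of all peaks, so the control share of the 8 genes lay below the whole list. With control cut to its 61210 most significant peaks, as many as cKO has, 79.2% of the genes' cKO peaks and 93.2% of their control peaks were found, against 84.2% and 83.5% of all peaks. The lists give no read counts, so depth is unknown, and absence of a call does not show closed chromatin. In a bulk library, fewer cells of a type and less open chromatin per cell cannot be told apart.

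**Figure D1:**
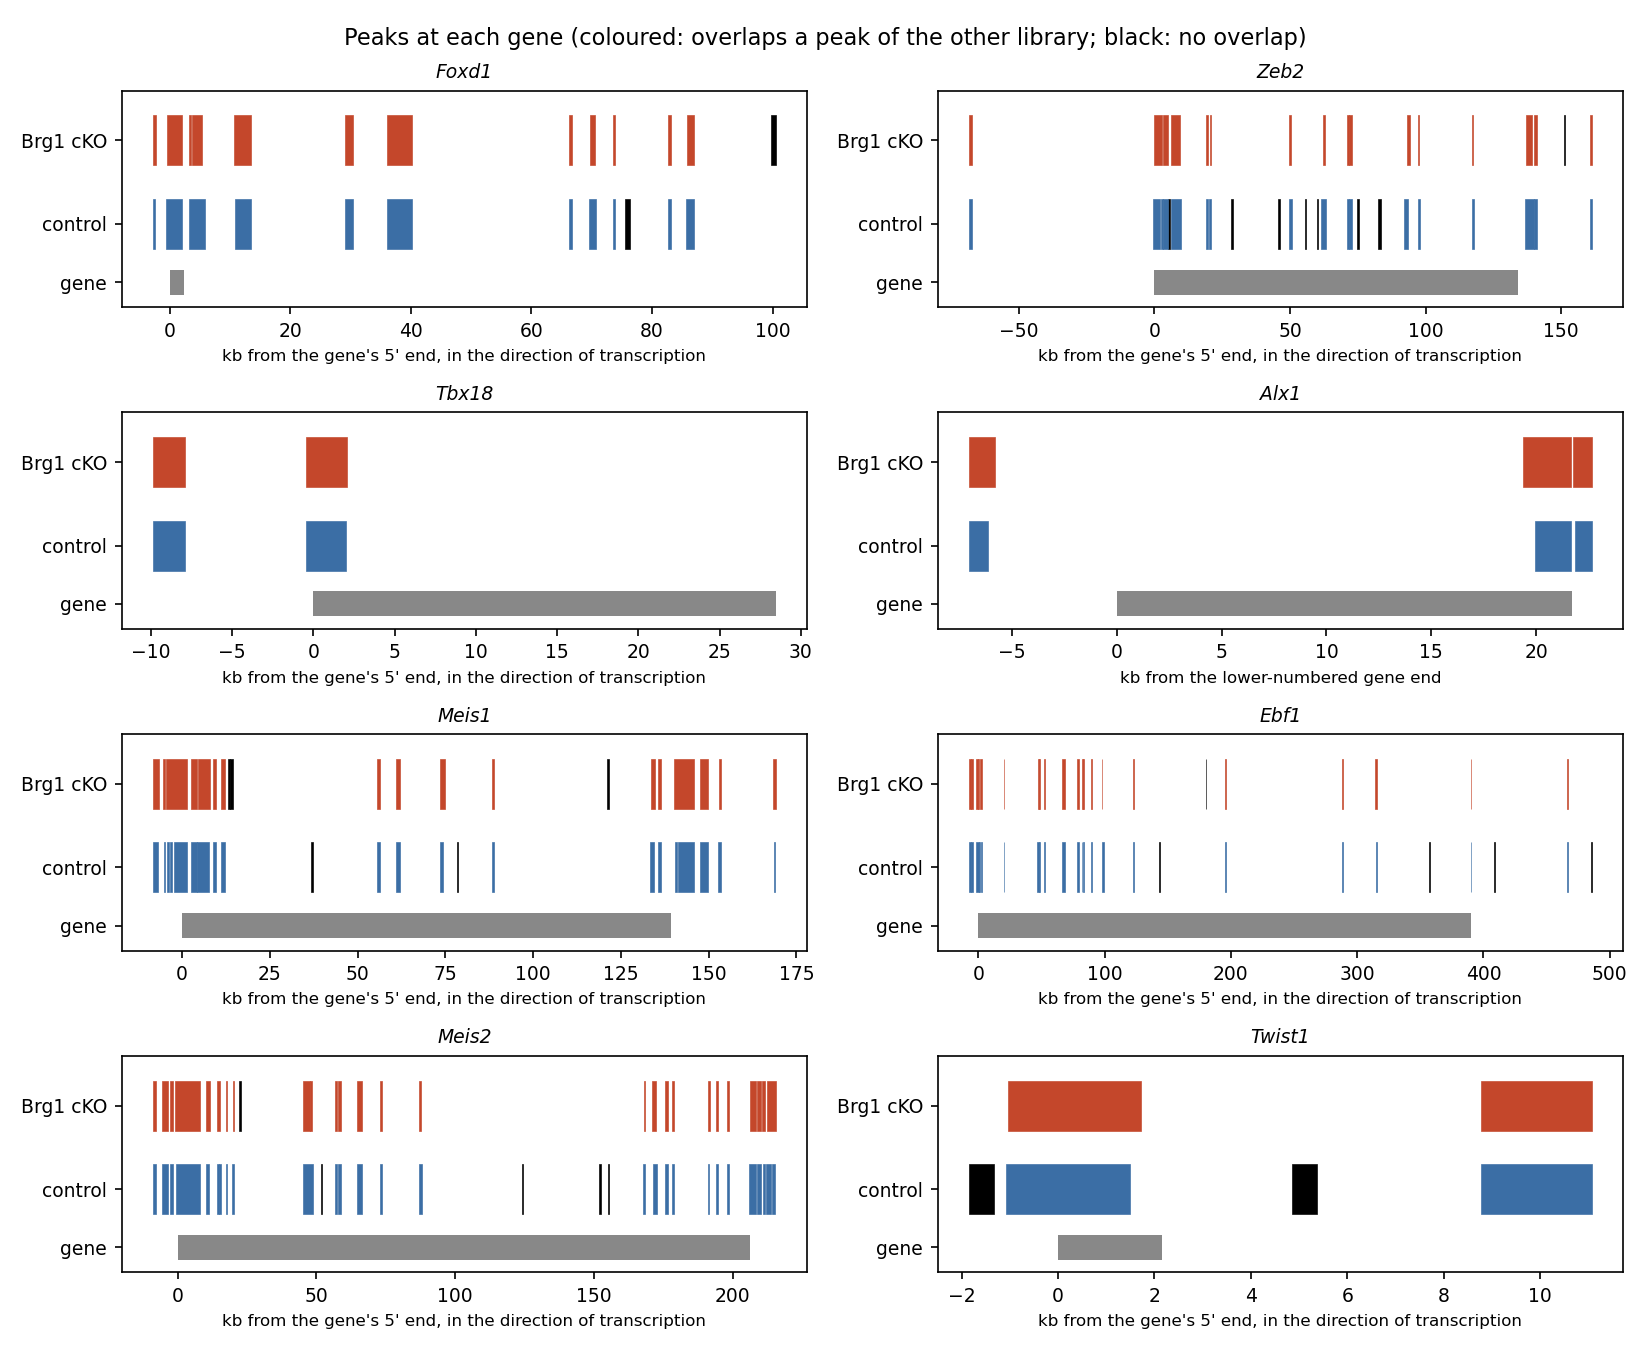
Peaks at the 8 genes in cKO (upper track) and control (lower track), with the gene as a grey bar; the horizontal axis is the distance in kb from the gene's 5' end, or for Alx1 from its lower-numbered end, with a different range in each panel. Coloured peaks overlap a peak of the other library and black ones, 7 in cKO and 20 in control, do not.

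**Figure D2:**
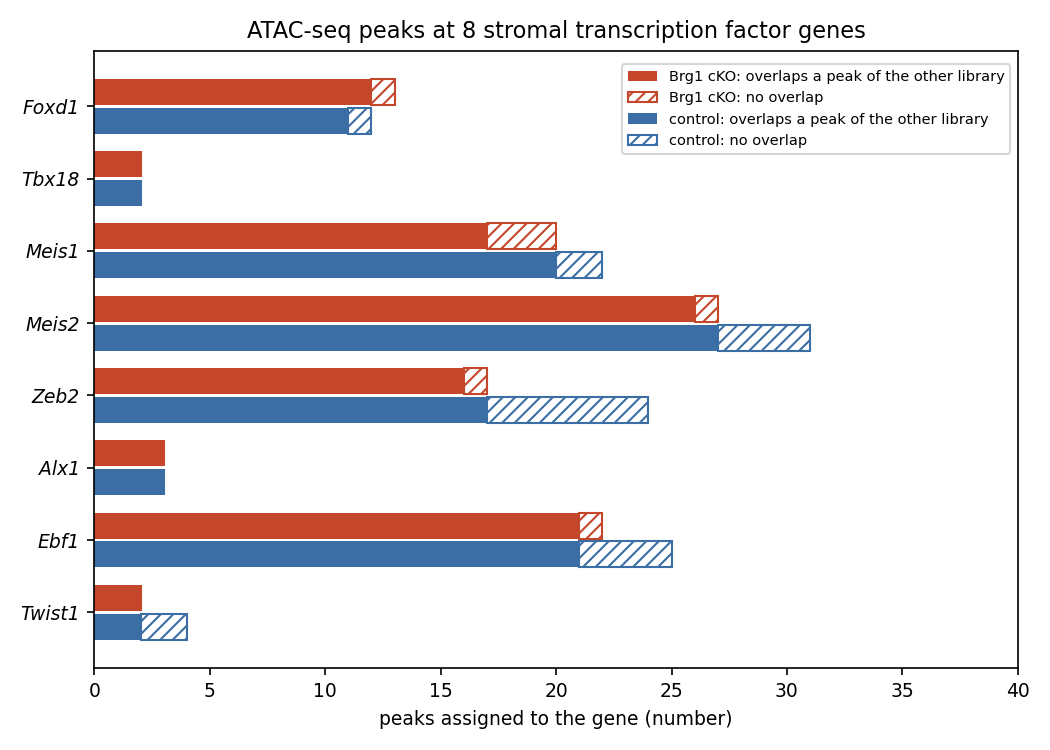
Number of peaks assigned to each gene, cKO bars above control bars; filled parts overlap a peak of the other library and hatched parts do not. Zeb2 has the longest hatched control bar, 7 of 24 peaks, and Meis1 the longest hatched cKO bar, 3 of 20 peaks.

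The unmatched peaks were among the weakest of their lists. Each list was divided into 5 equal classes by the peak caller's p. All 7 unmatched cKO peaks fell in the weakest class, in which 75.0% of 28 cKO peaks of the genes were found (55.1 to 89.3%), against 78.8% of all cKO peaks of that class. Of the 20 unmatched control peaks, 14 fell in the weakest class, 5 in the next and 1 in the middle class. In these 3 classes 60.0% of 35, 75.0% of 20 and 96.6% of 29 control peaks of the genes were found, against 38.5%, 56.3% and 81.1% of all control peaks. The intervals for the genes ran from 42.1 to 76.1%, from 50.9 to 91.3% and from 82.2 to 99.9%. The next class up held 24 cKO and 23 control peaks of the genes and the strongest 11 cKO and 16 control peaks, and each of these overlapped the other library. Unmatched peaks were also narrow, with a median width of 640 bp in cKO and 550 bp in control, against 1015 and 958 bp for the genes' matched peaks. Their median distance to the nearest peak of the other library was 9186 bp for cKO peaks and 6362 bp for control peaks, and 2 control peaks lay within 500 bp of a cKO peak.

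**Figure D3:**
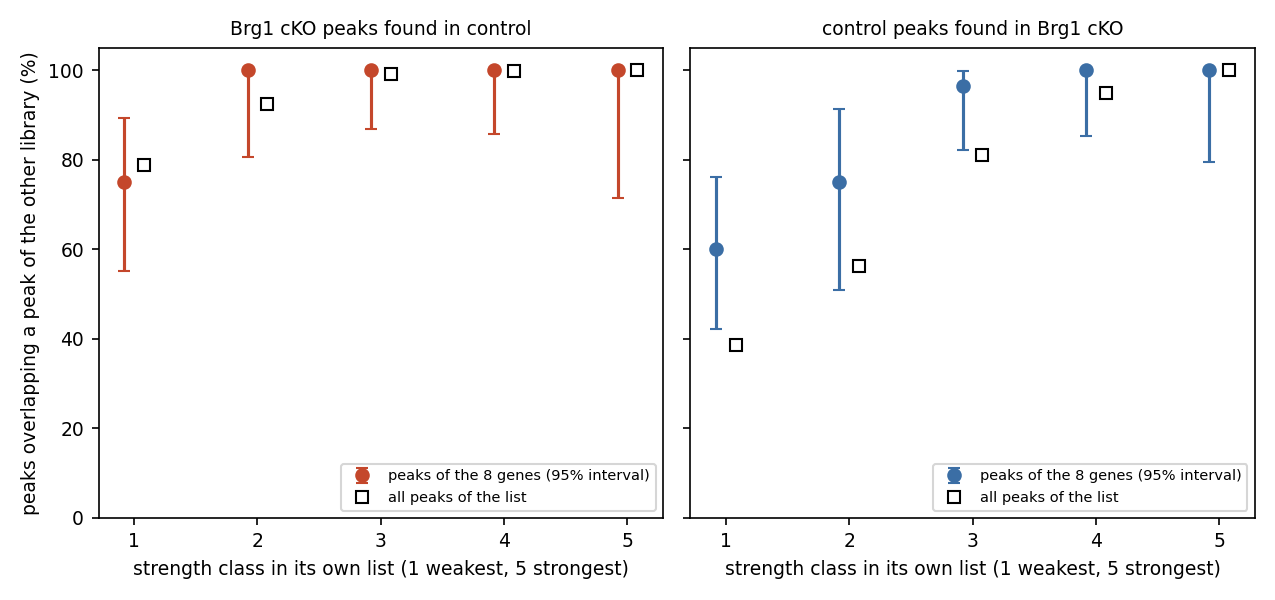
Percentage of peaks that overlap a peak of the other library, by strength class within the list, for cKO peaks (left) and control peaks (right). Filled points are peaks of the 8 genes with exact binomial 95% intervals and open squares are all peaks; in control classes 1 to 3 the filled points lie above the squares, at 60.0, 75.0 and 96.6%.

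In the lists as deposited, bases covered in cKO were closer to control at these genes than over all peaks. The peaks of the 8 genes covered 147 kb in cKO and 156 kb in control, 94.3% of the control value, against 84.4% over all peaks (71.4 Mb in cKO, 84.6 Mb in control). Their median width was 958 bp in cKO and 886 bp in control, against 900 and 838 bp over all peaks. For 87 peaks matched to exactly 1 peak of the other library, the median log2 ratio of widths, cKO over control, was -0.03 (quartiles -0.18 and 0.09), and it was -0.03 over 54820 such pairs in the whole lists. Sums of bases move with how many peaks a list calls, and with lists of equal length the 8 genes stood at 110.0% and all peaks at 96.2%. There the 8 genes lay farther from control than all peaks did. The genes differed among themselves more than this total shows, with cKO at 69.8% of control for Zeb2 and at 130% for Alx1.

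**Figure D4:**
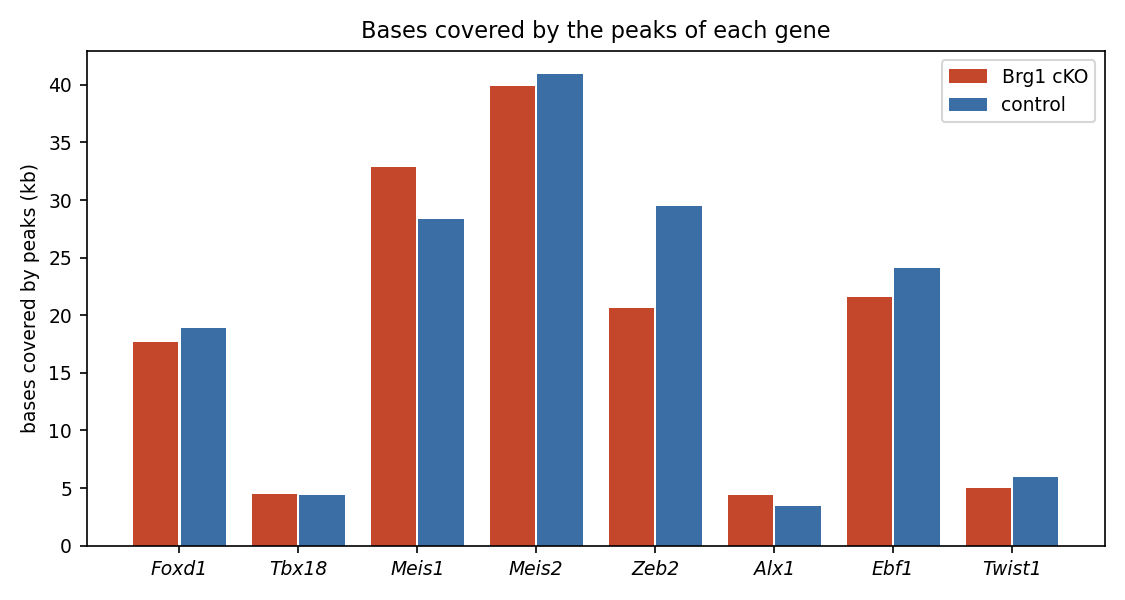
Bases covered by the peaks of each gene in kb, cKO bars left of control bars. Meis1, Alx1 and Tbx18 had more covered bases in cKO, and Zeb2 had 20.6 kb in cKO and 29.5 kb in control.

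Foxd1, which marks stromal progenitors (mm10 chromosome 13, 98354245 to 98356705), had no peak summit inside its short transcribed part, but a peak covered most of it. That peak spanned 2524 bp in cKO (98353752 to 98356275) and 2708 bp in control (98353577 to 98356284), and its summit lay 29 bp before the annotated start in both libraries. It was the most significant control peak of any of the 8 genes, at -log10 p of 11.3 in the authors' list. A run of peaks followed downstream, 11 in cKO out to 97.7 kb and 10 in control out to 84.2 kb. The widest, 34.7 kb past the gene, measured 4091 bp in cKO and 4242 bp in control. In all 12 of 13 cKO peaks (92.3%, 64.0 to 99.8%) and 11 of 12 control peaks (91.7%, 61.5 to 99.8%) overlapped the other library. The unmatched control peak lay 73.3 kb downstream, and the control peak nearest to the 3' end (98357490 to 98360161) corresponded to 2 cKO peaks. Covered bases came to 17.7 kb in cKO and 18.9 kb in control.

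The 250 bases before the annotated Foxd1 start, chr13:98353995-98354244 on the plus strand, lay inside the peak of both libraries. They are taken from RefSeq on GRCm38.p6 (mm10), as are the other sequences printed here, and are shown because they hold the letters TGACAG, the core of the Meis binding motif, printed in capitals and starting 50 bases before the start.
Foxd1: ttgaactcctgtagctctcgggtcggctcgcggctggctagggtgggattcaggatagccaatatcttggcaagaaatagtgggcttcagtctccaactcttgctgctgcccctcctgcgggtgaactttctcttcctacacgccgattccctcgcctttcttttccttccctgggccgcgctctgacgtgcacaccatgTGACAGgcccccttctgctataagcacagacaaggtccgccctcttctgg

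TGACAG on either strand occurred in 19.2% of 32851 promoter windows of 300 bases in the RefSeq table. The table held 11 such windows for 7 of the 8 genes, all but Alx1, and 2 of the 11, those of Foxd1 and Tbx18, held it. The E-box CANNTG, the type of site that Twist1 and Zeb2 proteins bind, occurred in 72.3% of all windows and in 4 of these 11, at Ebf1, Foxd1, Meis1 and Tbx18. The Foxd1 E-box overlapped TGACAG. The forkhead letters GTAAACA were in 3.65% of all windows and in none of the 11, the T-box letters AGGTGTGA in 1.28% and none, and the Ebf palindrome in 0.904% and none. Such matches describe letters in a window and show no binding.

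Tbx18 (chromosome 9, 87702800 to 87731260, minus strand) had 2 peaks in cKO and 2 in control, and each overlapped its counterpart. The promoter peak measured 2516 bp in cKO (87729191 to 87731706) and 2443 bp in control (87729266 to 87731708), and both contained the annotated start. The other, 9.54 kb upstream at the noncoding gene Gm36767, measured 1957 bp in cKO and 1985 bp in control. With 2 peaks, the share found has an interval of 15.8 to 100%, so little can be read from it.

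Meis1 (chromosome 11, 18880428 to 19019651, minus strand) was the member of the list with 10 or more peaks whose open chromatin was more extensive in cKO. Its peaks numbered 20 in cKO and 22 in control, but covered 32.9 kb in cKO and 28.3 kb in control, 116% of the control value. Of 1865 protein-coding genes that had 10 or more control peaks, 8.63% had more covered bases in cKO than in control, and among the 5 genes of this list that reach 10 control peaks Meis1 alone did. That set was picked by control counts alone, a choice that favours control over cKO, so its share may understate such genes. In cKO 6058 bp had no control peak, and in control 1501 bp had no cKO peak. Of 15 peaks matched to a single counterpart, 9 were wider and 6 narrower in cKO, against 41.2% wider among all such pairs.

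The excess lay partly at the Meis1 promoter. There the cKO list had a single peak of 6015 bp (19018176 to 19024190). In control the peak at the start spanned 3722 bp (19018174 to 19021895), and 2 smaller control peaks of 511 and 479 bp lay within the upstream part of the cKO peak. The next peak upstream measured 715 bp in cKO and 249 bp in control. A similar join lay past the 3' end, where a 5551 bp cKO peak (18873841 to 18879391) overlapped control peaks of 4629 and 743 bp. The cKO peak and the wider control peak also overlap the noncoding gene 8430419K02Rik. With these joins, 17 of 20 cKO peaks (85.0%, 62.1 to 96.8%) and 20 of 22 control peaks (90.9%, 70.8 to 98.9%) were matched.

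Meis1 had 3 of the 7 unmatched cKO peaks, all inside the gene. A pair of them, of 788 and 640 bp, lay side by side 14.1 and 13.3 kb from the 5' end, and the third, of 612 bp, lay 17.7 kb from the 3' end. They were weak, with -log10 p of 4.37 to 4.66. The pair also lies in the noncoding gene Gm16141. The unmatched control peaks, of 336 and 416 bp, lay 60.7 and 37.1 kb from the nearest gene end. The Meis1 promoter sequence, chr11:19018970-19019219 on the minus strand, is shown because the cKO peak extended upstream from it; its E-box is in capitals.
Meis1: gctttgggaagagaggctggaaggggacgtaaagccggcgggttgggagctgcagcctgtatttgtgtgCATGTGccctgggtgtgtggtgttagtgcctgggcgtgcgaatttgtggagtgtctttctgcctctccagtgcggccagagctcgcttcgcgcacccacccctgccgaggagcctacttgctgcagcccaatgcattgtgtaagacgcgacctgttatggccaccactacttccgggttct

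Meis2 (chromosome 2, 115861264 to 116067537, minus strand) had the most peaks of the 8 genes, 27 in cKO and 31 in control. It also had the widest peak, which covered its 5' end and the annotated start at 116064619 and measured 8907 bp in cKO (116059635 to 116068541) and 8811 bp in control (116059396 to 116068206). Of the cKO peaks 26 of 27 (96.3%, 81.0 to 99.9%) and of the control peaks 27 of 31 (87.1%, 70.2 to 96.4%) were matched. The 4 unmatched control peaks, of 392 to 669 bp, all lay inside the gene, and 3 of them lay 50.8, 54.0 and 81.9 kb from the 3' end. The remaining one lay 51.8 kb from the 5' end. Covered bases came to 39.9 kb in cKO and 40.9 kb in control, and 14 of 22 single-match pairs were narrower in cKO, with a median log2 ratio of -0.03.

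Zeb2 (chromosome 2, 44983512 to 45117442, minus strand) had the fewest covered bases in cKO relative to control. Its peaks numbered 17 in cKO and 24 in control and covered 20.6 kb in cKO and 29.5 kb in control, 69.8% of the control value. Over the 1865 genes above the median of this value was 77.3% and the 10th and 90th percentiles were 57.3 and 98.9%, so Zeb2 lay within the common range of that set. The set was picked by control counts, and over all peaks the value was 84.4%. Of the cKO peaks 16 of 17 (94.1%, 71.3 to 99.9%) and of the control peaks 17 of 24 (70.8%, 48.9 to 87.4%) were matched. Averaged over the strength classes that the Zeb2 control peaks fall in, 70.8% of all control peaks were matched, the same value.

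The 7 unmatched Zeb2 control peaks were all inside the gene, 5.70 to 60.3 kb from its nearer end. The most significant one (45061407 to 45061925, 519 bp) had -log10 p of 5.77 and lay 5.16 kb from the nearest cKO peak; it was the strongest unmatched control peak of the 8 genes. Another, of 827 bp (45111654 to 45112480), lay between the alternative starts of Zeb2, 141 bp from a cKO peak. Matched peaks were narrower too, in 13 of 15 single-match pairs, against 58.1% of all such pairs, with a median log2 ratio of -0.31 (quartiles -0.54 and -0.04). The largest difference was at a peak of 852 bp in cKO (45054593 to 45055444) and 2001 bp in control (45054154 to 45056154). The peaks that held the starts at 45110277, at 45113253 and 45113279, and at 45117442 were present in both libraries, with widths of 3322, 1682 and 3161 bp in cKO and 3782, 1549 and 2526 bp in control. The cKO peak of 3161 bp also overlapped a neighbouring control peak of 733 bp (45114458 to 45115190), so its width and the 2526 bp in control do not compare like stretches.

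Zeb2 is also expressed in macrophages, and immune markers also had fewer peaks in cKO. Of 5 immune genes, Ptprc, Csf1r, C1qa, Fcgr1 and Laptm5, 0 had a peak within 1 kb of a gene end in cKO and 3 had one in control, Csf1r, C1qa and Fcgr1. Ptprc and Laptm5 had none in either library. Over all genes, 3.92% of 16870 annotated starts in a control peak lay in no cKO peak, a narrower measure than a peak within 1 kb of a gene end. The part of immune cells in the Zeb2 values was not tested. The other marker lists had like counts in both libraries. A peak at a gene end was present for 9 of 10 stromal markers in cKO and 10 of 10 in control, where Lum made the difference. In both libraries it was present for all 6 smooth muscle and pericyte, all 5 nephron progenitor, all 5 podocyte and all 6 endothelial markers, and for 6 of 7 nephron lineage markers including Wnt4. It was also present for all 5 neural and Schwann and 3 of 4 B cell markers, so a peak at a gene end does not show which cells were sorted. Of 32851 annotated starts of all genes, 16348 lay in a cKO peak and 16870 in a control peak, again by the narrower measure.

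**Figure D5:**
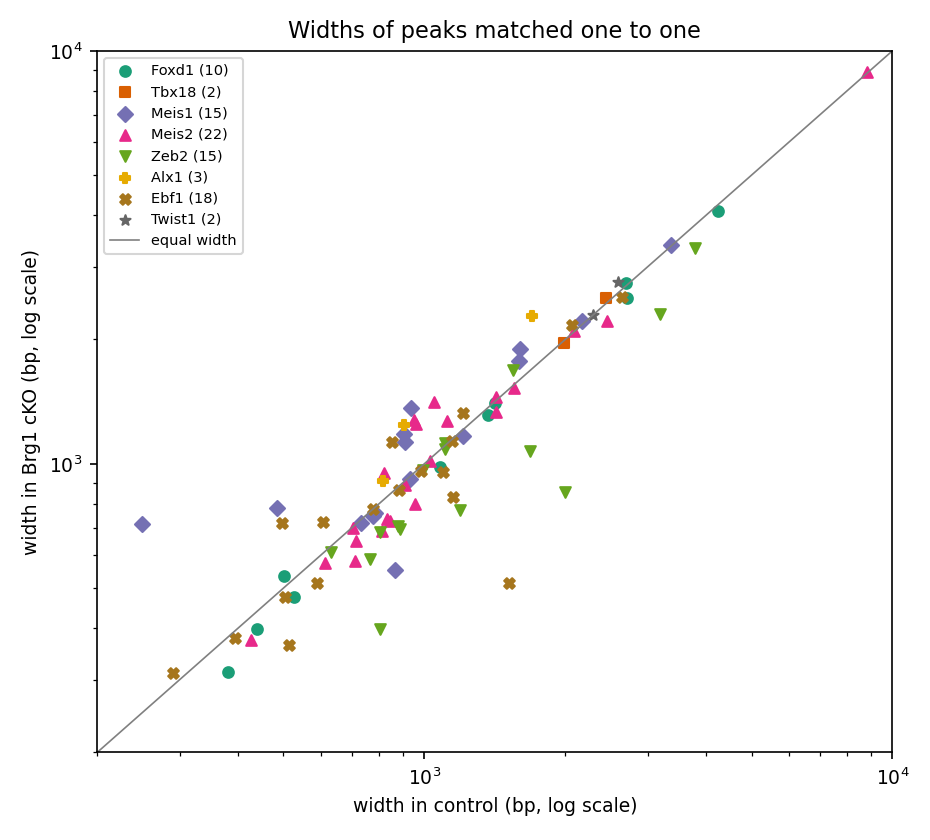
Widths in bp, on log axes, of 87 peaks that match exactly 1 peak of the other library, cKO on the vertical axis against control on the horizontal one; the number of pairs per gene is in the legend. Of the Zeb2 pairs 13 of 15 lie below the line of equal width, and all 3 Alx1 pairs lie above it.

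Ebf1, the longest of the 8 genes (chromosome 11, 44618100 to 45008096, plus strand), had 22 peaks in cKO and 25 in control. Of the cKO peaks 21 of 22 (95.5%, 77.2 to 99.9%) and of the control peaks 21 of 25 (84.0%, 63.9 to 95.5%) were matched. The 4 unmatched control peaks, of 434 to 725 bp, included 2 inside the gene and 2 past its 3' end, all of them 18.1 kb or more from the nearest cKO peak. Covered bases came to 21.6 kb in cKO and 24.1 kb in control. The largest difference in width was at a peak of 515 bp in cKO and 1516 bp in control, 97.9 kb into the gene in cKO.

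At the first Ebf1 start the libraries differed in how a peak was divided. In cKO a peak of 1778 bp (44616269 to 44618046) ended before the start and another of 503 bp (44618150 to 44618652) began after it. The annotated start at 44618100 fell in the 103 bp between them. In control a single peak of 2252 bp (44616448 to 44618699) ran across it. Of the 11 annotated starts of the 7 genes, 10 lay in a cKO peak and 11 in a control peak, and this was the only one that lay in none in cKO. Over all genes, 3.92% of 16870 starts in a control peak lay in no cKO peak. The second Ebf1 start, at 44620228, lay in a peak of 2141 bp in cKO and of 1138 bp in control. That cKO peak also overlapped a neighbouring control peak of 725 bp (44618982 to 44619706), so the 2 widths do not compare like stretches. No neighbouring peaks of either list lay closer than 101 bp, and 142 pairs in cKO and 169 in control were no farther apart than 103 bp, so the gap was close to the shortest that the lists hold.

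The sequence before the first Ebf1 start, chr11:44617850-44618099 on the plus strand, is shown because the gap begins in it, and the bases of the gap up to the start are in capitals.
Ebf1: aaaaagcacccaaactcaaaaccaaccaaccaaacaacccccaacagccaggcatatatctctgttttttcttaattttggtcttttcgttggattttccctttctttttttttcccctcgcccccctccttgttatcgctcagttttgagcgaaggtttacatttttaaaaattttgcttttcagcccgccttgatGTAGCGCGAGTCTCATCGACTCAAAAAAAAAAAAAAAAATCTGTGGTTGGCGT

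The gap held a run of 17 A before the start and a run of 15 T after it. A run of any base at least 17 long occurred in 1.43% of all promoter windows. A and T made up 69.9% of the gap, against a median of 47.3% over the promoter windows. The part of these runs in the gap was not tested.

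Twist1 (chromosome 12, 33957671 to 33959831, plus strand) had 2 peaks in cKO and 4 in control. The promoter peak measured 2754 bp in cKO (33956633 to 33959386) and 2587 bp in control (33956581 to 33959167), with a summit within 6 bp of the annotated start in both. A second shared peak lay 7.76 kb downstream in cKO and measured 2290 bp in cKO and 2296 bp in control. Both cKO peaks (100%, 15.8 to 100%) and 2 of 4 control peaks (50.0%, 6.76 to 93.2%) were matched. The unmatched control peaks, of 513 and 534 bp, lay 1.61 kb upstream, 300 bp from the cKO promoter peak, and 2.78 kb downstream.

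Alx1 (chromosome 10, 103007847 to 103029549) had 3 peaks in cKO and 3 in control, all matched and all wider in cKO. The peak inside the gene measured 2283 bp in cKO and 1701 bp in control, the peak beyond its higher-numbered end 908 bp in cKO and 816 bp in control, and the peak beyond its lower-numbered end 1241 bp in cKO and 904 bp in control. The first and second also overlap the protein-coding gene Gm34298, so they cannot be given to Alx1 alone. Covered bases came to 4.43 kb in cKO and 3.42 kb in control.

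Other transcription factor genes of stroma and mesenchyme gave values close to those of the 8 genes. For 19 such genes, among them Osr1, Tcf21, Prrx1, the Gli genes and the relatives Zeb1, Twist2, Meis3, Ebf2 and Ebf3, 159 of 168 cKO peaks (94.6%, 90.1 to 97.5%) and 158 of 192 control peaks (82.3%, 76.1 to 87.4%) were found in the other library, and covered bases in cKO were 95.4% of control. The most unmatched control peaks among them were at the Ebf1 relatives Ebf2, with 8 of 20, and Ebf3, with 6 of 14. Over all control peaks 25.9% were unmatched. With 60.0 and 57.1% of control peaks found, Ebf2 and Ebf3 lay within the common range of the 1865 genes above, whose 10th and 90th percentiles were 50.0 and 90.0%. Among genes with at least 5 control peaks, Hic1, a zinc-finger repressor gene of mesenchyme, had 0 of 8 unmatched and Nr2f1, a nuclear receptor gene, 0 of 5, as did Nr2f2, Osr1 and Tbx2 with 0. Hic1 had 11 peaks in cKO, 3 of them without a control counterpart, against 5.92% of all cKO peaks. Within families, cKO covered 116% of control bases at Meis1, 97.5% at Meis2 and 117% at Meis3, and 89.6% at Ebf1, 72.2% at Ebf2 and 91.7% at Ebf3. Over all peaks this value was 84.4%, and over the 1865 genes its 10th and 90th percentiles were 57.3 and 98.9%. The Meis3 value rests on only 4 peaks in cKO and 4 in control.

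For the 5 genes of the main list with at least 10 control peaks, Foxd1, Meis1, Meis2, Zeb2 and Ebf1, the share of control peaks found ran from 70.8 to 91.7%, with a median of 87.1%. Over the 1865 genes above the median was 70.0% and the 10th and 90th percentiles were 50.0 and 90.0%. Those genes were picked by control counts, and over all control peaks 74.1% were found. Of the peaks of the 8 genes, 22 of 106 in cKO and 23 of 123 in control also overlapped another annotated gene, mostly long noncoding genes such as 8430419K02Rik and Gm16141 at Meis1, so their assignment is by position only.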

How the data were processed

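ATAC-seq had been made from 50000 sorted cells per reaction, per the labels' protocols, and Trim Galore, SAMtools, Genrich and mm10 are named as tools and build, per the submitters' processing notes. Of the aligner, settings, versions, duplicates and shifting of cut sites, nothing is stated in the labels. The authors deposited 1 narrowPeak list per library. The deposited score, was not used. The deposited signal, an area no lower than 200 in either list, was not compared between libraries. The authors' -log10 p ranked peaks within a list only; the lowest deposited -log10 q was 1.35 in cKO and 1.42 in control.

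Coordinates are mm10, 1-based. Genes, ends and promoter sequences came from RefSeq tables of GRCm38.p6, the assembly of mm10; strand came from the promoter table, which gave 7 of the 8 genes. Overlap meant 1 bp or more. Shares have Clopper-Pearson intervals (SciPy 1.17.1; Python 3.11.15, pandas 2.3.3). Assignment and overlap were tested on simulated data. Members, gene lists and the rule for named peaks were chosen with earlier results of these data known: for each gene the most significant and the widest peak, the most significant unmatched ones and those at gene ends, and in the comparison list the 2 genes with most and the 2 with fewest unmatched control peaks among those with at least 5. Other peaks and genes given were chosen after their values were seen. Without a genome, motifs were searched in promoter windows only. A gene of the comparison list is not reported here, and the list's values are without it.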

Additional observations from a re-analysis of the deposited data

How the results depend on the processing

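Both shares of peaks found for the 8 genes were recomputed under 8 other settings, peak numbers and covered bases under 5 of them, and the median width ratio under 6. The share of control peaks found, 83.7%, moved outside its interval to 93.2% with lists of equal length, to 68.3% with the more significant 50% of each list and to 74.0% with overlap of 50% of both peaks. The share of cKO peaks found, 93.4%, moved to 79.2% with equal list lengths and to 85.8% with 50% overlap. Against all peaks under the same setting, the control share of the 8 genes differed by -7.10 points in the more significant 50% and between 4.18 and 10.1 points higher in the others. Covered bases in cKO moved to 110.0% of control with equal list lengths. Peak numbers were 65 in cKO and 76 in control for gene bodies alone, and 45 in cKO and 60 in control in the more significant 50%. Assignment within 50 kb, nearest ends of any annotated gene, summits in place of overlap and a tolerance of 500 bp (chosen after the data were seen) left the shares inside their intervals. With each gene left out in turn, 92.4 to 95.3% of cKO peaks and 82.2 to 86.9% of control peaks were found, and covered bases ran from 89.4 to 99.97% of control, the highest without Zeb2. Of 124 shares of single genes under these settings, 110 stayed inside the interval of the main value and 14 did not. Most of the 14 rose to 100%, which lies outside the interval by construction wherever a peak had been unmatched. The count is therefore a poor measure of stability. Equal list lengths remove weak control peaks by construction; otherwise the cause was not tested. The median log2 width ratio was 0.01 in the more significant 50%, against -0.03 as reported. Depth is unknown, and no difference between the libraries could be tested at any gene.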

Other observations

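Beyond 100 kb, peaks whose nearest protein-coding gene end still belonged to one of the 8 genes numbered 36 in cKO and 41 in control, of which 28 (77.8%, 60.8 to 89.9%) and 28 (68.3%, 51.9 to 81.9%) overlapped the other library. Over all peaks these shares were 94.1% in cKO and 74.1% in control. The cKO share of the far peaks lay below that of all peaks. Their control share was lower too, but its interval includes 74.1%. Within 100 kb the control share of the 8 genes lay above that of all peaks. Most far peaks lay in the gene-poor regions around Meis1 and Zeb2. For Meis1 17 of 19 cKO peaks and 17 of 21 control peaks were matched, out to 449 kb from the gene, and they covered 18.7 kb in cKO and 17.2 kb in control. For Zeb2 9 of 13 cKO peaks and 9 of 14 control peaks were matched. These far Zeb2 peaks reached 1400 kb from the gene in cKO and 1330 kb in control. All together they covered 11.4 kb in cKO and 10.7 kb in control, so the lower coverage within 100 kb of Zeb2 in cKO was not seen there. Foxd1 had 1 such cKO peak, which was matched, and 4 such control peaks, 1 of them matched. Meis2, Alx1 and Twist1 had none in either library. Assignment at this distance is by position only.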
